A study of Homo sapiens with 6 samples.

Results

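Peaks at the 3′ ends of protein-coding genes are described here from RNA immunoprecipitation followed by sequencing (RIP-seq), an assay that pulls down a protein and sequences the RNA that comes with it. The protein is taken to be SmD2, the product of SNRPD2, as the sample titles name SNRPD2OE but no target of the pull-down. HEK293T cells, a standard line of human embryonic kidney origin, were used. The labels gave 3 samples of genotype SNRPD2OE, where OE is the usual mark of overexpression but is not spelled out, and 3 Ctrl samples. A peak list of each SNRPD2OE sample was analysed, the Ctrl samples were not analysed here, and so no difference between the genotypes was tested. The labels do not give the overexpression construct, its promoter or the antibody, and nothing in them tells separate cultures from repeats of 1 culture, so the spread between replicates may be technical.

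A peak was counted at a 3′ end when it was at most 1000 bp wide and its summit lay in exactly 1 RefSeq gene span, that gene was protein-coding and at least 5 kb long, and the summit fell in the last 2000 bp of the gene by strand. The strand came from RefSeq's promoter table and was known for 13503 of 16837 such genes (80.2%). The other 3334 genes, among them all 589 such genes on chromosome 8, were not analysed here. They held 16.2%, 17.4% and 15.1% of the peaks that lay in protein-coding genes of this length in replicates 1, 2 and 3. By this rule 1908 of 30111 peaks of replicate 1 lay at a 3′ end, 6687 of 160931 of replicate 2 and 1118 of 65097 of replicate 3. Together these were 9713 of 256139 peaks. Of the peaks in the analysed genes they made up 9.39%, 7.95% and 10.2%. Replicate 3 stood apart in peak width, since only 15813 of its peaks were at most 1000 bp wide, against 30109 in replicate 1 and 160931 in replicate 2. Results are therefore also given without it.

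The 3′ end of an mRNA is made when the cleavage and polyadenylation machinery cuts the nascent transcript and adds a poly(A) tail. The stretch between the stop codon and that cut is the 3′ untranslated region, where regulatory proteins and microRNAs bind. SmD2 belongs to the ring of Sm proteins on the spliceosomal small nuclear RNAs, and the U1 particle, one of these, is known both to recognise 5′ splice sites and to keep transcripts from being cut early at poly(A) signals inside the gene. The series asked how SmD2 interacts with pseudouridine, a modified base that enzymes such as PUS7 place in RNA.

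Exons and the genome sequence were not used here. Sequence was at hand only where a 3′ end summit fell inside a stretch of RefSeq's promoter table (build GRCh38.p14) that belongs to a neighbouring gene start, which was the case for 26 of the 9713 summits. The following 30 bases are shown because they lie under the sites of this kind that more than 1 list gave. They are written 5′ to 3′ in the sense of the named gene, with the summit bases in capitals. The JPT1 window, chr17:75136173-75136202 on the minus strand, holds the summits of replicates 3 and 1, and that of replicate 2 lies 1 base beyond its last base. The CALM3 window, chr19:46609198-46609227 on the plus strand, holds those of replicates 2 and 1.
JPT1: AgcccgtgcctgctgcgCctgtgcccagcc
CALM3: cttctcgCgcgcgcactctctcTtcaacac
The motif associated with PUS7, searched as TNTAA or TNTAG on the gene's strand, was in neither window, and neither was the poly(A) signal AATAAA. Among 349430 windows of 30 bases in the promoter table, 12.4% held TNTAA or TNTAG on the table's strand and 0.954% held AATAAA, and those windows lie at gene starts. JPT1, named for the Drosophila microtubule-associated protein Jupiter, had 33, 32 and 28 reads at these summits in replicates 1, 2 and 3, over a background of 10.01, 15.3 and 7.88 reads. CALM3, which encodes calmodulin, had 13 and 17 reads in replicates 1 and 2 over 4.10 and 5.42 background reads, and no 3′ end peak in replicate 3.

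Summits were denser at the 3′ ends than in the interior of the same genes in each replicate. The interior is the gene without its first and last 2000 bp, and densities count only bases that lie in exactly 1 gene span. The 3′ windows held 88.7, 310.9 and 51.98 summits per Mb in replicates 1, 2 and 3, and the interiors held 18.1, 80.3 and 9.08. Long genes make up most of the interior, so each gene was also set against its own interior. From the interior density of each gene, 882, 2801 and 488 summits would fall in its 3′ window, and 1905, 6676 and 1113 did. The ratio was 2.16, 2.38 and 2.28, a mean of 2.27 ± 0.112 (SD, n = 3 replicates). All 3 replicates lay above 1, and the exact permutation test over the 3 replicates (two-sided) gave p = 0.25, the smallest that 3 replicates allow, so 0.05 could not be reached in any test of this kind. Without replicate 3 the ratio was 2.27.

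The same excess appeared when genes rather than summits were counted. Among 9004 genes of at least 6 kb with full windows, 13.4%, 39.1% and 7.83% had a peak in the 3′ window in replicates 1, 2 and 3. In a window of the same size at the middle of the gene, 6.69%, 19.3% and 3.83% had one. The ratio was 2.003, 2.03 and 2.04 (mean 2.03 ± 0.0205, SD, n = 3, exact permutation test, p = 0.25). In 189, 865 and 88 of the genes both windows held a peak.

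**Figure D1:**
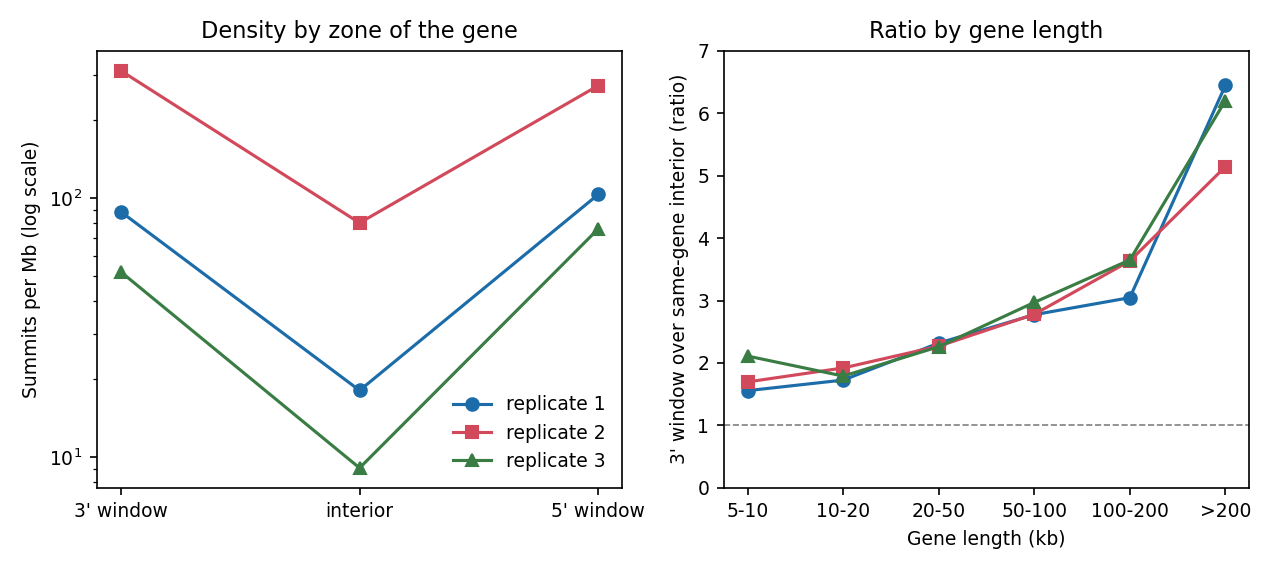
The left panel plots peak summits per Mb (log scale) in the 3′ window, the interior and the 5′ window of the analysed genes, 1 line a replicate, and the right panel plots the number of summits in the 3′ window over that expected from the interior of the same gene, by gene length in kb. Both ends lie above the interior in each replicate, and the 3′ ratio is 1.79 on average in genes of 5 to 10 kb and 5.93 in genes over 200 kb.

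The excess was larger in genes over 20 kb than in shorter ones and alike on both strands. In genes of 5 to 10 kb the ratio of 3′ window to own interior was 1.56, 1.70 and 2.11 in replicates 1, 2 and 3. In genes of 10 to 20 kb it was 1.73, 1.92 and 1.79, so replicate 3 was lower there than in the shortest class. In genes of 20 to 50 kb it was 2.32, 2.27 and 2.26, in genes of 50 to 100 kb it was 2.77, 2.78 and 2.97, and in genes of 100 to 200 kb it was 3.05, 3.63 and 3.65. In genes over 200 kb it was 6.45, 5.14 and 6.20, from 102, 534 and 25 summits. Each replicate was higher in the longest class than in the shortest. Interiors of long genes are mostly intron as a rule, and the part of exon content in this trend was not tested. Genes on the plus strand gave 2.30 ± 0.03896 and genes on the minus strand 2.25 ± 0.188 (SD, n = 3 each).

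Within the 3′ window the summits crowded toward the annotated end but not onto it. The densest 100 bp lay from 100 to 200 bp before the end in each replicate, with 141.8, 452 and 111 summits per Mb in replicates 1, 2 and 3. The last 100 bp held 57.2, 281 and 72.7. The median distance from the end was 895, 882 and 698 bp. The last 500 bp made up 24.5% of the window and held 30.5%, 30.6% and 40.8% of its summits, so replicate 3 was the most concentrated there.

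The window's outer limit marked no step. From 1900 to 2000 bp before the end the density was 74.6, 261.2 and 33.7 summits per Mb, and from 2000 to 2100 bp it was 65.5, 218 and 30.01. Against the next window of 2000 bp upstream in the gene, which held 68.1, 208.9 and 32.5 summits per Mb, the 3′ window was higher by a ratio of 1.46 ± 0.1496 (SD, n = 3, exact permutation test, p = 0.25). Beyond the annotated end the lists differed. In the first 2000 bp downstream, counted only where no gene lies, replicates 1 and 3 had 2.46 and 0.910 summits per Mb, while replicate 2 had 65.1. The 3′ window was 36.0, 4.78 and 57.1 times as dense as this downstream stretch in replicates 1, 2 and 3.

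**Figure D2:**
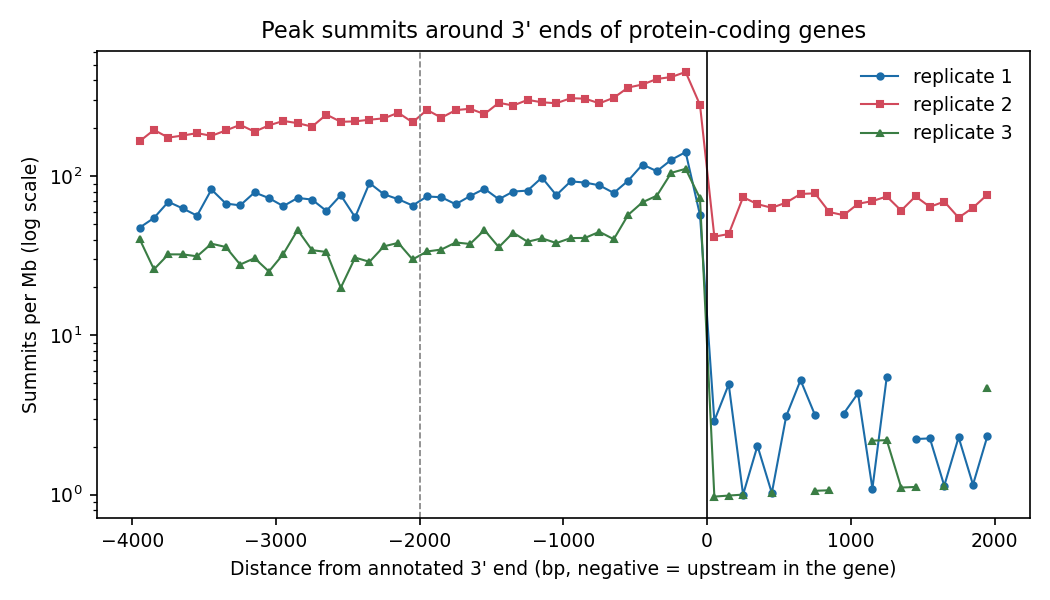
Peak summits per Mb (log scale) in bins of 100 bp are plotted against the distance from the annotated 3′ end, upstream to 4000 bp in the gene and downstream to 2000 bp outside genes, 1 line a replicate, with bins of no summit left blank and the dashed line at 2000 bp. The lines peak between 100 and 200 bp before the end and drop past it, to at most 5 summits a bin in replicate 1 and at most 4 in replicate 3.

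The first 2000 bp of the same genes were also dense, and with windows of 2000 bp the ends did not differ in a uniform direction. The 5′ windows held 103.5, 272 and 76.2 summits per Mb in replicates 1, 2 and 3. The ratio of 3′ to 5′ window was 0.857, 1.14 and 0.682, a mean of 0.894 ± 0.232 (SD, n = 3, exact permutation test, p = 0.5). Without replicate 3 it was 0.999, and without replicate 2 it was 0.77. Against the interior of the same genes the 5′ windows reached 2.63 ± 0.642. In replicate 2 the 3′ end was the denser one and in replicates 1 and 3 the 5′ end was. With windows of 1000 bp the ratio was 0.578, 0.910 and 0.497, so the 5′ end was denser in each replicate. The same held with windows of 500 bp (0.385, 0.693 and 0.378), with at least 10 reads (0.792, 0.791 and 0.552) and with a q-value under 0.05 (0.376, 0.684 and 0.166). With no width limit, in genes of at least 20 kb and by peak midpoint, replicate 2 stayed above 1.

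Peaks at 3′ ends had more reads than interior peaks, over a background that was higher too. From a peak's fold and −log10 p, as deposited, the reads at its summit and the local background of the peak caller were solved, both in reads. Whether that background comes from a control library or from coverage of the same sample is not known, so background and fold are relative to whichever the caller was given. At 3′ ends 592 of 1908 peaks of replicate 1 had at least 10 reads (31.03%, 95% exact binomial interval 28.96 to 33.2), 791 of 6687 of replicate 2 (11.8%, 11.1 to 12.6) and 410 of 1118 of replicate 3 (36.7%, 33.8 to 39.6). These intervals cover counting error only. Of interior peaks 19.04%, 5.40% and 26.01% had as many. The difference was 9.69 ± 2.90 percentage points (SD, n = 3) and was positive in each replicate (exact permutation test, p = 0.25). Without replicate 3 it was 9.21. Peaks were pooled over genes here, and in genes of at least 20 kb the difference was 7.68, 3.57 and 6.41 points in replicates 1, 2 and 3. The part of the mix of genes in this difference was not tested. In the 5′ window 33.6%, 17.1% and 45.3% of peaks had at least 10 reads, more than in the 3′ window in each replicate.

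The background moved with the reads. Its median at 3′ end peaks was 0.586, 0.134 and 0.461 reads in replicates 1, 2 and 3, against 0.195, 0.0578 and 0.307 at interior peaks. The median deposited fold at 3′ ends was 2.73, 1.94 and 2.57, and in the interior it was 2.74, 1.94 and 2.56. The median −log10 p was lower at 3′ ends, at 2.90, 3.11 and 2.75, against 3.13, 3.26 and 3.13 in the interior. Few peaks of either zone had a deposited q-value under 0.05, namely 2.57%, 4.59% and 1.88% at 3′ ends against 4.60%, 4.16% and 2.85% in the interior. The last comparison ran in opposite directions in replicate 2 and in the other replicates (difference -0.856 ± 1.24 percentage points, SD, n = 3, exact permutation test, p = 0.5). In the 5′ window 5.85%, 7.67% and 7.71% of peaks had such a q-value, more than at 3′ ends in each replicate. The level of each RNA in the cells was not used here, and its part in these counts was not tested.

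**Figure D3:**
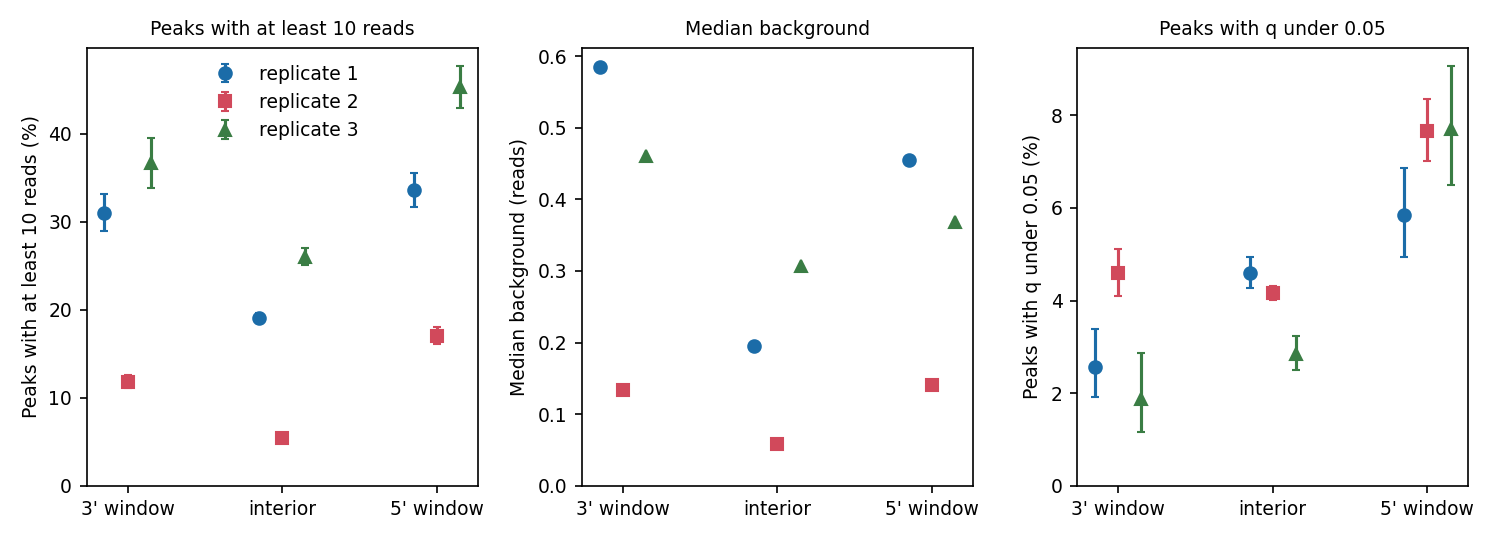
The 3 panels give, for peaks in the 3′ window, the interior and the 5′ window, the percent with at least 10 reads, the median background in reads and the percent with a deposited q-value under 0.05, with bars for the 95% exact binomial interval where a percent is shown. Reads and background are both higher at the 3′ window than in the interior in each replicate, while the share under the q-value threshold is lower in replicates 1 and 3 and higher in replicate 2.

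Within single genes the mean reads of the 3′ end peaks were more often lower than higher than those of the interior peaks. In 1076, 3667 and 566 genes of replicates 1, 2 and 3 that held a peak in both zones, the mean number of reads was higher at the 3′ end in 39.6%, 38.5% and 40.1%, that is in 426, 1413 and 227 genes, and lower in 563, 1688 and 299. The median log2 ratio of reads was -0.070, 0 and -0.075. The background was higher at the 3′ end in 52.04%, 52.0% and 53.9% of them. The −log10 p was higher there in 35.9%, 38.3% and 35.2%, with a median log2 ratio of -0.14 ± 0.060 (SD, n = 3, exact permutation test, p = 0.25). The higher reads of 3′ end peaks as a class thus had no counterpart in these means. The interior mean ran over a median of 2, 6 and 2 peaks a gene. Of all genes with a 3′ end peak, 77.0%, 60.8% and 78.9% had only 1 there. A single peak can fall below a mean of several in most genes, so these shares do not settle which zone has more reads.

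The 3′ excess over the interior of the same gene held across classes of reads and of background. For peaks with 2 to 4 reads the ratio was 2.09, 2.93 and 2.61 in replicates 1, 2 and 3, and for peaks with 10 to 19 reads it was 2.31, 2.54 and 2.64. Peaks with a single read, of which replicate 1 had none, gave 2.14 and 2.01 in replicates 2 and 3. They made up 49.0% of the 3′ end peaks of replicate 2. Peaks with 20 to 80 reads gave 2.17, 1.64 and 2.11. Peaks with a background of at least 1 and under 5 reads gave 2.47, 2.93 and 3.23, the highest mean of the background classes. The ratio was lower at a background under 0.1 reads (1.60, 1.78 and 1.81) and at 5 reads or more (2.04, 1.90 and 2.25). Peaks with a q-value under 0.05 gave 1.36, 2.19 and 1.49, from 49, 307 and 21 peaks.

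Most 3′ ends with a peak had it in 1 list only. Of 11190 genes with at least 1 base of the 3′ window in no other gene, 1475 (13.2%), 4198 (37.5%) and 889 (7.94%) had a 3′ end peak in replicates 1, 2 and 3. All 3 lists gave one in 282 genes (2.52%), and at least 2 lists in 1328 (11.9%). With at least 10 reads in each list the count was 125 (1.12%). The 282 genes were 19.1%, 6.72% and 31.7% of the genes of replicates 1, 2 and 3. Replicates 1 and 2 shared 959 genes, which were 65.02% of the genes of replicate 1 and 22.8% of those of replicate 2.

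Peaks at the same position were rarer. Merging 3′ end peaks of a gene that overlap by at least 1 bp gave 8515 sites, of which 160 (1.88%) in 145 genes had a peak in all 3 lists and 826 had one in 2 lists. The 160 sites held 8.54%, 2.60% and 15.7% of the 3′ end peaks of replicates 1, 2 and 3. Interior peaks were not merged into sites, so these shares have no interior counterpart here. Replicates 1 and 2 without replicate 3 gave 624 shared sites. The 160 sites lay at a median of 532.5 bp from the end. In 89 of them the strongest peak of each list had at least 10 reads, and in 2 of them each had a q-value under 0.05.

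How often 3′ end peaks overlapped another list, set against interior peaks, depended on the settings. A 3′ end peak overlapped a peak of at most 1000 bp of another list in 23.9%, 7.90% and 30.9% of cases in replicates 1, 2 and 3, as the mean over the other lists. For interior peaks this was 23.9%, 5.81% and 29.8%. The difference was 1.08 ± 1.05 percentage points (SD, n = 3, exact permutation test, p = 0.5), and 0.265 without replicate 3. With no limit on peak width it was -2.94, and with reciprocal overlap of 50% it was -0.644. With windows of 1000 bp it was 3.43 (3.47, 3.12 and 3.70 in replicates 1, 2 and 3), and with windows of 500 bp it was 5.44 (6.38, 4.45 and 5.48). Among peaks with at least 10 reads it was 4.94 (5.02, 2.95 and 6.86). The difference was thus positive in each replicate nearer the end and among peaks with more reads.

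The leading shared site lay in SNRNP70, which encodes U1-70K, a protein of the U1 particle. The gene lies on chromosome 19 from 49085451 to 49108604 on the plus strand (GRCh38). Its site had 36, 28 and 36 reads in replicates 1, 2 and 3 over a background of 3.34, 4.51 and 0.461 reads, with summits 120, 234 and 115 bp from the 3′ end. The authors' folds were 7.53, 5.26 and 9.07. Its peaks were broad for this class, at 944, 718 and 967 bp, and those of replicates 1 and 3 are close to the width limit. SNRNP70 and TTL held the 2 sites at which each list had a q-value under 0.05.

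TTL, the enzyme that adds tyrosine to tubulin, had narrow peaks at nearly 1 position in each list. On chromosome 2 from 112482156 to 112541739, its peaks of 46, 47 and 83 bp had summits 298, 302 and 301 bp from the end. They held 18, 17 and 15 reads over 0.390, 0.903 and 0.138 background reads. The folds were 9.55, 9.46 and 4.64, and folds are not compared between replicates because each list has its own scale.

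The sites of CCT3 and ENO1, both in the list of abundant mRNAs, had many reads over a high background. CCT3, a subunit of the cytosolic chaperonin, had 44, 41 and 46 reads with folds of 3.04, 2.43 and 4.13 and a background of 13.3, 16.3 and 8.15 reads. ENO1, the glycolytic enzyme enolase, had 45, 60 and 56 reads with folds of 2.54, 1.64 and 3.801, over 16.7, 36.1 and 11.8 background reads. KRT8, a keratin of simple epithelia, is not in that list and had 9, 10 and 12 reads with folds of 3.20, 5.78 and 3.78. ENO1 and KRT8 have processed pseudogenes, so reads there are uncertain where copies match.

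Other leading sites are given by gene. NF2, which encodes the tumour suppressor merlin, had 11, 6 and 8 reads with summits 676, 824 and 601 bp from the end. RASSF1, a Ras-association protein, had 17, 12 and 14 reads with summits at 856, 860 and 855 bp. MAP2K2, which encodes the kinase MEK2, had 24, 20 and 19 reads, and PTPA, an activator of the phosphatase PP2A, had 19, 22 and 14. The background at MAP2K2 was 8.34, 5.42 and 1.69 reads, and a listed peak exceeds its background by construction.

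RNF126, a ubiquitin ligase, had 13, 14 and 12 reads with summits 599, 599 and 594 bp from the end. ADRM1, a ubiquitin receptor of the proteasome, had 14, 13 and 14 reads. GET3, which delivers tail-anchored membrane proteins, had 17, 19 and 14 reads. The SNARE protein YKT6 had 19, 19 and 22 reads with summits 1984, 1956 and 1975 bp from the end, just inside the window. VPS45, which acts with SNAREs in vesicle fusion, had 12, 14 and 13 reads. In each of these genes the 3 lists differ by at most 5 reads at the summit. These reads are not scaled to library totals, which are unknown, and the sites were chosen as strong in all 3 lists.

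CBX6, a Polycomb protein, had 13, 11 and 12 reads, and the zinc finger gene ZNF425 had 8, 7 and 8. MRPL30 of the mitochondrial ribosome had 10, 7 and 9 reads, and UQCC1, an assembly factor of respiratory complex III, had 20, 8 and 16. ACOT7, an acyl-CoA thioesterase, had 15, 13 and 9 reads, and AMZ2, a metallopeptidase, had 11, 11 and 12. Over the 20 leading sites the reads ran from 8 to 45 in replicate 1, from 6 to 60 in replicate 2 and from 8 to 56 in replicate 3. A q-value under 0.05 was reached by 7, 10 and 2 of the 20 sites. The number of shared sites in 1 gene did not exceed 2, which was reached by 15 genes, among them GET3, MRPL30 and ADRM1.

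**Figure D4:**
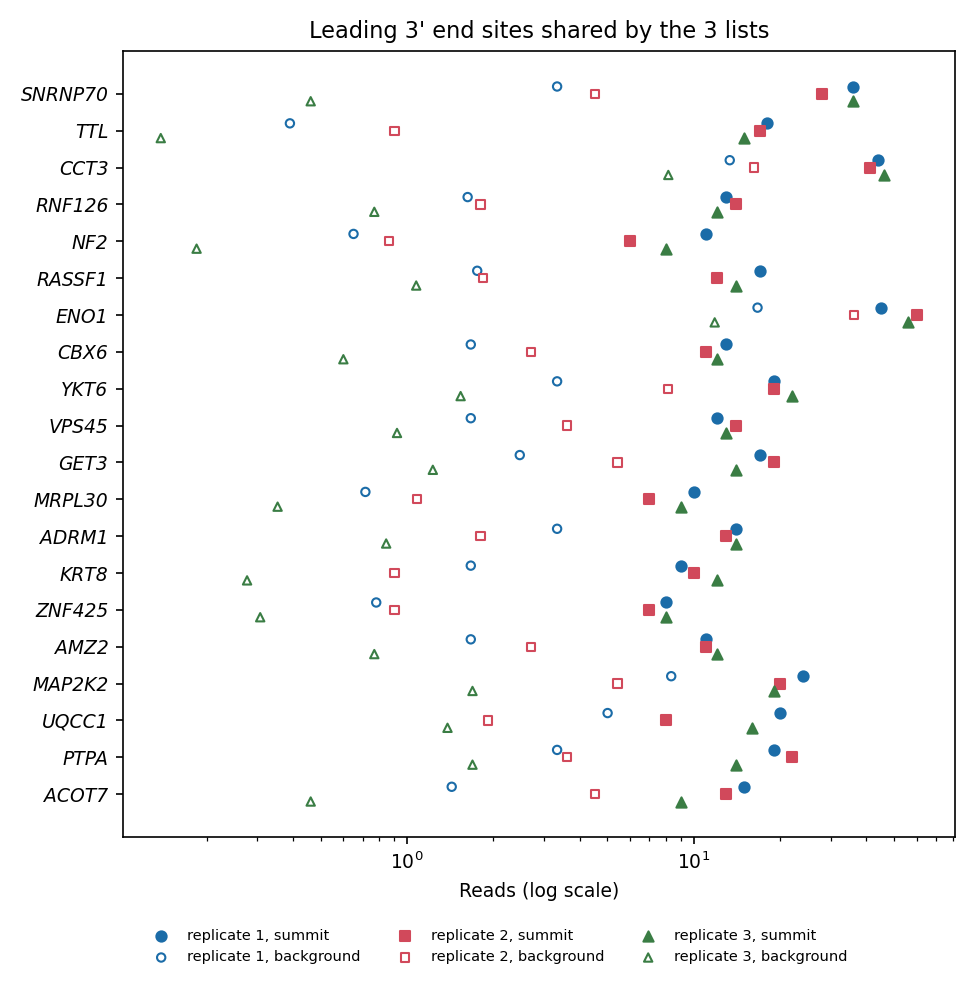
Reads at the summit (filled) and the caller's background (open), both on 1 log axis in reads, are plotted by replicate for the 20 leading 3′ end sites shared by the 3 lists, in order of mean percentile of −log10 p. SNRNP70 and TTL have the widest gaps between summit and background in replicate 3, at 36 against 0.461 and 15 against 0.138 reads, while ENO1 in replicate 2 has 60 against 36.1.

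The strongest 3′ end peaks of single lists were partly absent from the others, and those named next were chosen after their values were seen. In replicate 1, SEPHS1, a selenophosphate synthetase homologue, had 11 reads and a fold of 6.78 at 157 bp from the end, and replicate 2 had no 3′ end peak there. In replicate 2, the nuclear receptor gene NR1H3 had 8 reads and a fold of 8.12, and UBA3, a subunit of the enzyme that activates NEDD8, had 12 reads and a fold of 8.68. Neither gene had a 3′ end peak in replicates 1 or 3. In replicate 3, NDUFB4 of respiratory complex I had 12 reads over 0.0461 background reads, with no 3′ end peak in the other lists. MYBL2, a cell cycle transcription factor, had a peak at 1237 bp from the end in replicate 3 with 20 reads, and a 3′ end peak in each other list.

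The lists of genes were read against the shares of all analysed genes, 13.2%, 37.5% and 7.94% by replicate and 2.52% in all 3 lists. Reads of their genes are those of the strongest 3′ end peak by −log10 p in each replicate. These peaks need not lie at 1 site, and a weaker one can have more reads. The snRNP and spliceosome list had a 3′ end peak in 15, 20 and 14 of 37 analysed genes (40.5%, 54.1% and 37.8%), above the share of all genes in each replicate. In 6 of the 37 all 3 lists gave one: SNRNP70, PRPF6, PRPF19, SF3B2, USP39 and DHX38. PRPF19, the ubiquitin ligase of the Prp19 complex, had 13, 17 and 16 reads, with summits 418, 418 and 708 bp from the end. SF3B2, a subunit of the U2-associated SF3B complex, had 17, 15 and 11 reads, with summits at 512, 514 and 1018 bp. With at least 10 reads in each list the count was 4 of the 37, against 125 of 11190 (1.12%) over all genes. In replicates 1 and 2 without replicate 3 it was 12 of the 37, against 959 of 11190. The strongest 3′ end peak of the list's genes with one had a median of 15, 11.5 and 13 reads in replicates 1, 2 and 3, against 6, 2 and 8 for all genes with one.

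The machinery that forms 3′ ends was not uniform. Of 17 analysed cleavage and polyadenylation genes, 2, 6 and 4 had a 3′ end peak in replicates 1, 2 and 3 (11.8%, 35.3% and 23.5%), which is above the share of all genes in replicate 3 only. XRN2, the exonuclease of transcription termination, had one in all 3 lists, with 16, 17 and 8 reads at 543, 535 and 515 bp from the end. With at least 10 reads in each list no gene of the 17 did. CPSF3, the endonuclease that cuts the transcript, had 14 and 52 reads in replicates 2 and 3 and no 3′ end peak in replicate 1. CSTF3 had 8 and 6 reads in the same replicates. Of 10 analysed Integrator genes, which encode a complex that cuts snRNA precursors, 4, 3 and 3 had a peak (40%, 30% and 30%). That is above the share of all genes in replicates 1 and 3 and below it in replicate 2. INTS13 and INTS3 had one in all 3 lists, and with at least 10 reads in each list no gene of the 10 did. The INTS13 peaks had 7, 10 and 12 reads, with summits 1218, 322 and 345 bp from the end. Those of INTS3 had 7, 6 and 5 reads, with summits at 1173, 1800 and 1782 bp. INTS12 had 8 reads in replicate 3 alone.

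Genes of mRNA decay and of proteins that bind 3′ untranslated regions were also counted. Of 24 analysed genes of deadenylation and mRNA decay, 8, 10 and 4 had a 3′ end peak (33.3%, 41.7% and 16.7%), each above the share of all genes, and SMG5 and EDC4 had one in all 3 lists. SMG5, a factor of nonsense-mediated decay, had 17, 9 and 8 reads, with summits 318, 44 and 1684 bp from the end. EDC4, a scaffold of decapping, had 11, 9 and 8 reads, with summits at 518, 207 and 395 bp. With at least 10 reads in each list the count was 1 of the 24. The helicase UPF1 had 13 and 9 reads in replicates 1 and 2. Of 24 analysed genes of proteins that bind 3′ untranslated regions, 1, 7 and 1 had a peak (4.17%, 29.2% and 4.17%), and none had one in 2 lists. These counts are small, and the shares were not tested against the 13.2%, 37.5% and 7.94% of all genes. HNRNPD, AGO4 and RC3H1 had 8, 3 and 2 reads, each in replicate 2 alone.

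Pseudouridine synthases were few. Of 8 analysed genes, 2, 3 and 4 had a 3′ end peak (25%, 37.5% and 50%), and 1, RPUSD3, had one in all 3 lists with 14, 9 and 15 reads at 243, 1257 and 108 bp from the end, so not at 1 site. DKC1, the synthase of box H/ACA particles, had 3 and 9 reads in replicates 2 and 3, and RPUSD4 had 5 reads in replicate 3 alone. PUS7 had a 3′ end peak in replicate 1 alone, with 5 reads over 0.651 background reads and a fold of 2.88, although 6, 12 and 1 peaks of at most 1000 bp lay in the gene in replicates 1, 2 and 3. SNRPD2, at 4863 bp, is under the length limit and was not analysed here.

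Abundant, ribosomal and tissue-restricted genes gave a range of shares. Of 40 analysed abundant mRNAs, 9, 22 and 7 had a 3′ end peak (22.5%, 55% and 17.5%), each above the share of all genes, and CCT3, ENO1, ACLY and HSP90AB1 had one in all 3 lists. ACLY, the ATP citrate lyase, had 19, 14 and 14 reads, with summits 1786, 88 and 98 bp from the end. With at least 10 reads in each list the count was also 4 of the 40. Where the list's genes had a 3′ end peak, the strongest had a median of 30, 36 and 50 reads. Of 26 analysed cytosolic ribosomal protein genes, 2, 10 and 2 had a peak (7.69%, 38.5% and 7.69%), close to the share of all genes in replicates 2 and 3, and RPL11 had 56 and 39 reads in those replicates at folds of 1.37 and 2.18. RPL22 had 9 and 36 reads and RPS24 had 2 and 2 in replicates 1 and 2. Ribosomal protein genes have many processed copies, so these reads are uncertain. Of 22 analysed tissue-restricted genes, 1, 7 and 0 had one (4.55%, 31.8% and 0%). In replicate 2 that share was near the 37.5% of all genes, and its examples CFTR, a chloride channel, and SLC17A7, a neuronal glutamate transporter, had 1 read each. A single read in replicate 2 was thus listed as a peak at genes of other tissues.

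**Figure D5:**
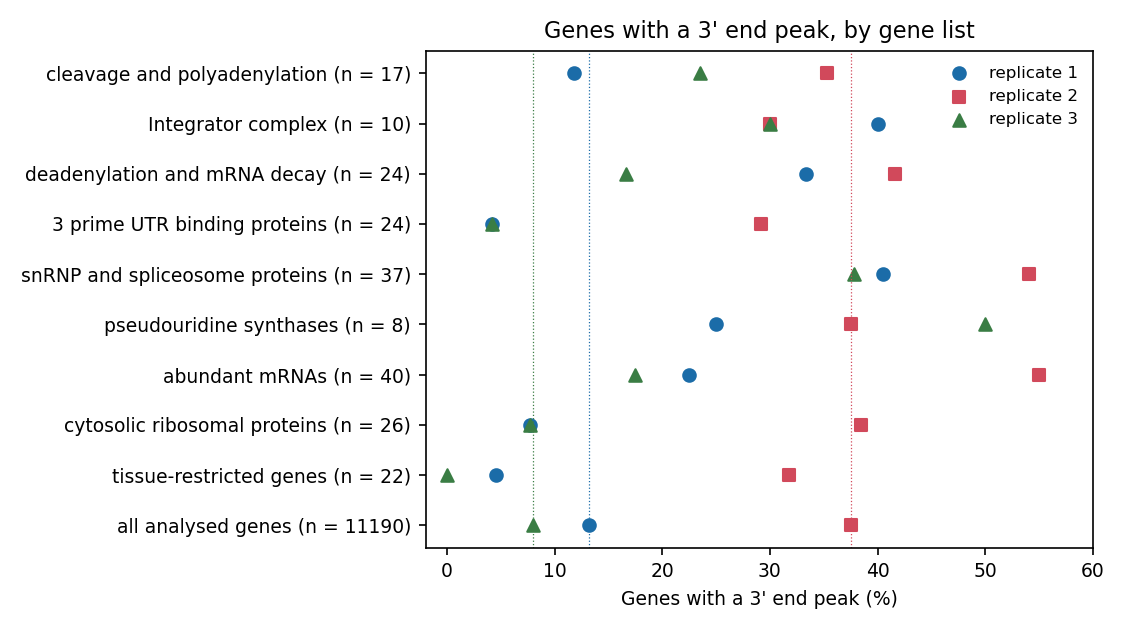
The percent of analysed genes with a 3′ end peak is plotted for each gene list, 1 mark a replicate, with dotted lines at the percent over all 11190 analysed genes. The snRNP and spliceosome list lies right of the dotted line of the same colour in each replicate, while the cytosolic ribosomal protein list lies near it in replicates 2 and 3.

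Few cell type markers could be analysed. Over all 11190 analysed genes, 4952 (44.3%) had a 3′ end peak in at least 1 list, and the markers were not tested against that share. Of 10 genes expressed in HEK293T cells 4 could be analysed, and 3 of these had a 3′ end peak, KRT8 in all 3 lists, VIM in replicate 2 and LIN28B in replicate 3. Of 2 analysed leukocyte markers 0 had a peak in any list, and of 2 analysed cholangiocyte markers both had 1 read in replicate 2 alone. Of 4 analysed hepatocyte markers CPS1 had 2 reads in replicate 1 and 1 in replicate 2, and of 2 analysed muscle markers ACTN2 had 1 read in replicate 2.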

How the data were processed

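RIP-seq peak lists of 3 SNRPD2OE samples were analysed. MACS2 2.2.9.1, STAR 2.7.10b, cutadapt 4.2 and build GRCh38 are named per the submitters' processing notes. Their options, the library taken as background, strand and the treatment of duplicates are not stated there. Each list was called on 1 sample, as the deposited peak names show. The deposited score is the whole part of 10 times the −log10 p. The deposited fold is read as a ratio of scaled reads plus 1 to background plus 1. As deposited, the −log10 p-value carries no adjustment and the −log10 q-value is 0 for most peaks. The deposited start, end and summit columns give positions in bp.

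Reads were recovered as the whole number that best returned the deposited p from the fold, given the height of 1 read (0.599, 1 and 0.254). All but 3 peaks were solved within 0.002 on the −log10 scale. Reads at the summit give the depth behind a peak, and library totals are unknown. Without strand in the lists, sense and antisense peaks cannot be told apart. Genes came from RefSeq GRCh38.p14 (59675 nuclear spans), matched by symbol. The genes of the 9 gene lists and 5 marker lists all matched, and genes under 5 kb, without a strand or without own 3′ bases were left out.

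Within-replicate values were compared by a two-sided exact permutation test over replicates. Named genes were the 20 shared sites with the highest mean percentile of −log10 p, the first 3 genes of each list, the 3 genes with most shared sites, PUS7 and SNRPD2, with exceptions stated. Members and lists were chosen with earlier results of these data known. Alternatives changed the peak width, q-value, reads, window, gene length, summit, overlap, interior and replicates. Steps were tested on simulated data. Python 3.11.15, numpy 2.4.6, pandas 2.3.3 and scipy 1.17.1 were used.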

Additional observations from a re-analysis of the deposited data

How the results depend on the processing

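The ratio of 3′ window to own interior stayed above 1 under 13 alternatives, with a mean of 1.46 against the next upstream window only, 1.68 for peaks with a q-value under 0.05, 2.03 by genes against the mid-gene window, 2.60 and 2.96 with windows of 1000 and 500 bp, and 4.83 when densities were pooled over genes. The mean ratio of 3′ to 5′ window stayed below 1 under 10 alternatives, from 0.409 with a q-value under 0.05 to 0.999 without replicate 3. Single replicates did not all do so. Replicate 2 gave 1.14 with no width limit, 1.13 in genes of at least 20 kb and 1.14 by peak midpoint. The difference in the share with at least 10 reads stayed positive under 10, from 5.89 points in genes of at least 20 kb to 21.1 with a q-value under 0.05. Taking the smallest number of reads that fits, an alternative added after the data were seen, gave 9.61. The difference in overlap (1.08 points) was 3.43 and 5.44 with windows of 1000 and 500 bp and 4.94 with at least 10 reads. It turned to -2.94 points with no width limit and to -0.644 with reciprocal overlap of 50%, and the cause was not tested.

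Counts depended on the peaks and windows admitted, as fewer or more could be counted by construction. Genes with a 3′ end peak in all lists (282) numbered 2 with a q-value under 0.05, 150 and 83 with windows of 1000 and 500 bp, 166 at 20 kb and 125 with at least 10 reads, and 378 to 959 when 1 replicate was left out. Shared sites (160) numbered 2 with a q-value under 0.05, 71 with windows of 500 bp, 84 at 20 kb, 90 with at least 10 reads and 31 with reciprocal overlap of 50%, and 273 to 624 without 1 replicate. Genes of the 9 lists with a peak in all lists (16) numbered 42 in at least 2 lists and 10 with at least 10 reads, and 17 to 30 without 1 replicate. A single read lay at 0%, 49.0% and 3.22% of the 3′ end peaks of replicates 1, 2 and 3. No paired analysis was possible because the Ctrl samples that share the replicate numbers were not analysed here.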
